A study of Mus musculus with 18 samples.

Results

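The mitochondrial carriers Ucp2 and Ucp3 and the acyl-CoA thioesterases Acot1, Acot2, Acot7, Acot9 and Acot13 were measured by RNA sequencing of left ventricle. These 7 genes were taken by name from the 55450 gene IDs of the count table, and each of the 7 was among the 16270 genes that were abundant enough to test. The 18 libraries came from male FVB/N mice, either wild type (WT) or with Gαq overexpressed in the heart (Gαq). Mice ate control diet (CD) or chow carrying ertugliflozin (ERTU) at 0.5 mg/g, a drug that blocks renal glucose uptake through SGLT2. On CD there were 4 WT and 5 Gαq mice, and on ERTU 5 WT and 4 Gαq mice. Feeding lasted 16 weeks from the age of 4 weeks, so that all were 20 weeks old at the end. WT mice were littermates of the transgenic mice, and the promoter of the transgene is not given in the sources used here. Levels are given as CPM, the count of a gene scaled to a common library total. Libraries are called by their group and by the number in the header of the table, which runs across the whole series. The questions were how the 7 genes differed with genotype and with diet, and how they stood against Pdk4 from library to library.

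Uncoupling proteins are carriers of the inner mitochondrial membrane. Ucp1 lets protons back into the matrix of brown fat, whereas Ucp3 is best known from skeletal muscle and heart, where it goes up in states of high fatty acid supply, and Ucp2 is made in many cell types, immune cells included. Acyl-CoA thioesterases split acyl-CoA into a free fatty acid and coenzyme A. Acot1 acts in the cytosol and Acot2 in the mitochondrial matrix, both on long chains. Acot7 is a cytosolic enzyme known mostly from brain, and Acot9 and Acot13 are mitochondrial. Pdk4 encodes a kinase that switches off pyruvate dehydrogenase and thereby glucose oxidation. Pdk4, Ucp3, Acot1 and Acot2 are textbook targets of the fatty acid receptor PPARA.

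The members form pairs in the genome (build GRCm38, GENCODE M21). Ucp3 (ENSMUSG00000032942, chr7:100472990-100486432, plus strand) lies 6904 bases before Ucp2 (ENSMUSG00000033685, chr7:100493337-100502020, plus strand), and their coding sequences were 75.2% identical over 915 aligned bases. Acot2 (ENSMUSG00000021226, chr12:83987861-83993873, plus strand) lies 15616 bases before Acot1 (ENSMUSG00000072949, chr12:84009490-84018371, plus strand), with 95.6% identity over 1236 aligned coding bases. Acot7 (ENSMUSG00000028937) is at chr4:152178134-152271855 on the plus strand, Acot9 (ENSMUSG00000025287) at chrX:155262443-155297654 on the plus strand and Acot13 (ENSMUSG00000006717) at chr13:24817948-24831540 on the minus strand. The coding starts of Acot2 (chr12:83987902-83988088) and Acot1 (chr12:84009510-84009573), both in an exon, show where these near copies part. Capitals mark the 123 bases of Acot2 that had no counterpart in Acot1 and that encode the amino-terminal end, where the mitochondrial import signal of Acot2 lies.
Acot2 coding start: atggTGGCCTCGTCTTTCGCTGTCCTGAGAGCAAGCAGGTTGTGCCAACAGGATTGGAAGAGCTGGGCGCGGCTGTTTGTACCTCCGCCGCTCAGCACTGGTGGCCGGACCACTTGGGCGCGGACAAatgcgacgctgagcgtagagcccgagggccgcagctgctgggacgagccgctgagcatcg
Acot1 coding start: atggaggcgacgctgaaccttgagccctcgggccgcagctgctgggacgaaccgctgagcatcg

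Of all 100-base windows of its principal transcript, 21.9% in Acot1 and 17.1% in Acot2 also occurred, letter for letter, in a transcript of another gene. For Acot1 these genes were Acot2, Acot3, Acot4, Acot5, Acot6 and the unnamed locus 4732463B04Rik, and for Acot2 only Acot1. Only uniquely aligned pairs were counted, and how many pairs were lost or split between the near copies was not measured, so the counts of Acot1 and Acot2 are uncertain to that extent. The share was 5.30% in Ucp2, through an exon overlap of 305 bases with Dnajb13 on the opposite strand, and 0.968% in Acot9, through its near copy Acot10. No such window was found in Ucp3, Acot7 or Acot13.

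The promoters of Ucp3 (chr7:100472741-100473040), Acot2 (chr12:83987611-83987910) and Acot1 (chr12:84009252-84009551), all plus strand and from RefSeq (GRCm38.p6), are shown because these 3 genes followed Pdk4 most steeply below. Each covers 250 bases before to 50 bases after the start. Capitals mark the 1 match, with up to 2 mismatches on either strand, to the repeat that PPARA binds together with RXR, AGGTCA and AGGTCA with 1 base of any kind between them.
Ucp3 promoter: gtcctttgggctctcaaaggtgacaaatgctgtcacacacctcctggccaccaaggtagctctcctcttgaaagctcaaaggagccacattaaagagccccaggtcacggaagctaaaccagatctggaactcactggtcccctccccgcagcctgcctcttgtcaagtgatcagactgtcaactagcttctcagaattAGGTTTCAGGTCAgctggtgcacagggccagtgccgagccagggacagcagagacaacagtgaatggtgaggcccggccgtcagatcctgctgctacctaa
Acot2 promoter: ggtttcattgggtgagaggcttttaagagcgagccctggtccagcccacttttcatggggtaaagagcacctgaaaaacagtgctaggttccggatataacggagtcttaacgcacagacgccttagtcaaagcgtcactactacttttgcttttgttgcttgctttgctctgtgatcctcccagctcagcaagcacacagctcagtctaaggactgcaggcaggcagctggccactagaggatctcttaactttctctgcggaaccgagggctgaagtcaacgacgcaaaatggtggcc
Acot1 promoter: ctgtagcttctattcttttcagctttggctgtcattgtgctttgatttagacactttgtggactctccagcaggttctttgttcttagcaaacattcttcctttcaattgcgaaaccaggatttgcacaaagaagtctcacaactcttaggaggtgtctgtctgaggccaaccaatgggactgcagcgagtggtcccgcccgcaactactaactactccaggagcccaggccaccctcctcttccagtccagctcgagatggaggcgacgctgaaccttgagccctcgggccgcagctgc

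The match in Ucp3 read AGGTTTCAGGTCA and lay 51 to 39 bases before the start. The promoters of Ucp2, Acot1, Acot2, Acot7, Acot9 and Pdk4 held no match in this window, and the table has no entry for Acot13. Of all 32851 promoters of this length, 3.86% held such a match. The single repeat unit AGGTCA occurred 2 times in the Ucp3 promoter, 1 of them inside the match, and 16.3% of all promoters held it at least once.

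Total counts per library were 15383566 to 20908363, and libraries of a group correlated with each other at 0.971 or above (log2 CPM). Counts of the 7 genes were 47 to 5547 per library, the lowest in Acot1. Gnaq, the gene of Gαq, was at 45.5 to 229.7 CPM in WT hearts. It was at 1641 to 11672 CPM (mean 7473) in Gαq CD and at 2236 to 5207 CPM (mean 3216) in Gαq ERTU. Each library thus matched the genotype of its label. The diet labels were not checked by Gnaq, and reads of the transgene were not separated from those of the mouse gene. Each of the 10 cardiomyocyte markers was present, with a summed level of 73527 to 112669.6 CPM per library. Lymphocyte markers summed to at most 9.10 CPM in any library, and none of the 10 was at 0 throughout. Labels gave no sequencing batch. In tissue RNA, fewer cells of a type and less RNA per cell cannot be told apart.

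Per kilobase of principal transcript, Acot13 was the most abundant of the 7 genes, at 324 ± 47.7 CPM per kb (SD, n = 18). Its lowest library, 245 CPM per kb, lay above the highest library of any other member, 135 CPM per kb in Acot2. Next came Acot2 at 62.7 ± 36.4, Acot7 at 58.8 ± 6.39, Ucp3 at 48.8 ± 33.7 and Ucp2 at 34.3 ± 13.6 CPM per kb, which overlapped each other from library to library. Acot9 at 19.7 ± 2.31 and Acot1 at 18.2 ± 15.1 CPM per kb were lowest and also overlapped. The order was the same when levels were divided by the length of all exons together. Acot1 therefore stood below its mitochondrial near copy Acot2. Spread set the members apart as much as level did: the highest library exceeded the lowest 40.8-fold in Acot1, 31.3-fold in Ucp3 and 10.6-fold in Acot2, but 3.40-fold in Ucp2, 1.64-fold in Acot13 and at most 1.53-fold in Acot7 and Acot9.

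Ucp3 was lower in Gαq than in WT and was called with diet in the model. In WT CD its levels were 229 (library 1), 239.8 (library 2), 23.1 (library 4) and 187 (library 5) CPM. In WT ERTU they were 257 (library 11), 220.1 (library 12), 175 (library 13), 123 (library 14) and 117 (library 15) CPM. In Gαq CD they were 79.7 (library 6), 8.23 (library 7), 14.8 (library 8), 10.4 (library 9) and 105 (library 10) CPM. Library 4 stood apart from the other WT CD hearts, and libraries 7, 8 and 9 lay below every WT heart while libraries 6 and 10 did not. In Gαq ERTU the levels were 130.1 (library 16), 61.2 (library 17), 86.5 (library 18) and 82.5 (library 20) CPM, and 3 of these 4 hearts lay below every WT ERTU heart. The log2 change by genotype was -1.47 ± 0.46 (SE), or 2.77-fold lower, with an adjusted p of 0.0268 (edgeR's quasi-likelihood test, Benjamini-Hochberg over all genes tested). By this test 19.6% of all genes were called, 9.92% of all genes as lower in Gαq. Without WT CD library 1 or 2 the adjusted p of Ucp3 became 0.0532 or 0.0558.

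**Figure D1:**
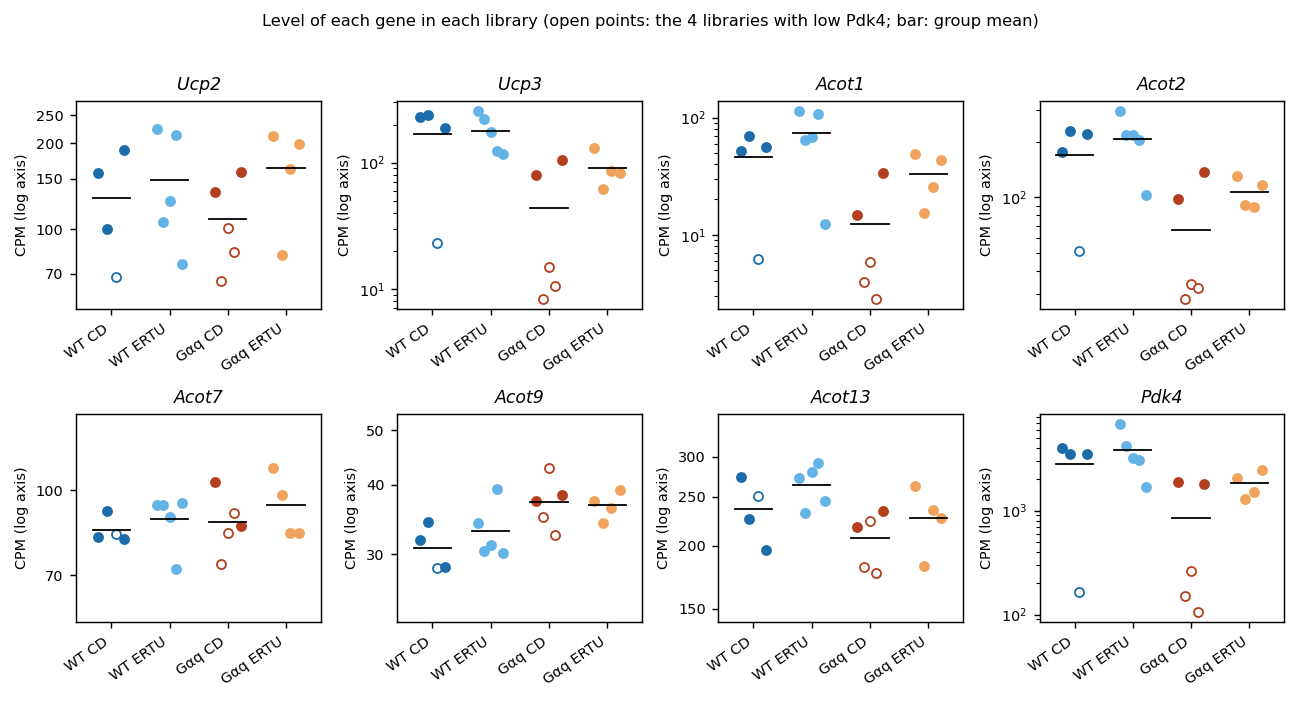
Level of each of the 7 genes and of Pdk4 in CPM (log axis) in every library, by group; bars are group means and open points are the 4 libraries with low Pdk4. The open points are lowest of all in Ucp3, Acot1 and Acot2, whereas in Acot7, Acot9 and Acot13 their range overlaps that of the others.

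Acot1 and Acot2 were called in the same direction. Acot1, the cytosolic enzyme, was 52.3 (library 1), 69.6 (library 2), 6.19 (library 4) and 56.4 (library 5) CPM in WT CD. It was 114 (library 11), 64.4 (library 12), 68.1 (library 13), 107 (library 14) and 12.3 (library 15) CPM in WT ERTU. It was 14.8 (library 6), 3.97 (library 7), 5.81 (library 8), 2.80 (library 9) and 33.8 (library 10) CPM in Gαq CD. Again WT CD library 4 and Gαq CD libraries 7, 8 and 9 were the lowest of all 18, and WT ERTU library 15 was far below the other WT ERTU hearts. In Gαq ERTU Acot1 was 48.4 (library 16), 15.5 (library 17), 25.7 (library 18) and 43.4 (library 20) CPM, so each of these hearts lay above the WT library with the lowest value. The log2 change by genotype was -1.51 ± 0.48 (SE), or 2.85-fold lower (edgeR adjusted p = 0.0280). The adjusted p rose to 0.0607 without WT CD library 2, to 0.0512 without Gαq CD library 8, to 0.0505 without Gαq ERTU library 17 and to 0.0676 with limma voom.

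Acot2, the matrix enzyme, was also lower in Gαq. Its levels were 176 (library 1), 229.8 (library 2), 50.9 (library 4) and 219.9 (library 5) CPM in WT CD. They were 296 (library 11), 219 (library 12), 219 (library 13), 204 (library 14) and 103 (library 15) CPM in WT ERTU. In Gαq CD they were 98.4 (library 6), 27.9 (library 7), 33.9 (library 8), 32.4 (library 9) and 138 (library 10) CPM. The same 4 control-diet libraries were lowest. Gαq ERTU hearts ran from 88.6 to 131 CPM, and 2 of the 4 lay below every WT ERTU heart. Acot2 was lower by genotype by a log2 change of -1.16 ± 0.31 (SE), or 2.23-fold (edgeR adjusted p = 0.0108), and was called in all 18 fits that each left out 1 library (adjusted p up to 0.0268).

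Acot9 was the only member called as higher in Gαq, by a small amount. It was 31.8 (library 1), 34.4 (library 2), 28.4 (library 4) and 28.4 (library 5) CPM in WT CD and 30.2 to 39.3 CPM in WT ERTU. It was 37.4 (library 6), 34.9 (library 7), 42.7 (library 8), 32.5 (library 9) and 38.4 (library 10) CPM in Gαq CD and 34.1 to 39.2 CPM in Gαq ERTU. On CD, 4 of 5 Gαq hearts lay above every WT heart, and on ERTU the ranges overlapped. The log2 change by genotype was 0.21 ± 0.07 (SE), or 1.16-fold (edgeR adjusted p = 0.0338), against 9.72% of all genes called as higher. In 9 of the 18 fits without 1 library it was not called (adjusted p up to 0.0693), nor with no filter on low counts (adjusted p = 0.0654). The libraries were WT CD 1, 4 and 5, Gαq CD 8 and 10, WT ERTU 12, 13 and 15, and Gαq ERTU 20.

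Ucp2, Acot7 and Acot13 were not called by genotype. Ucp2 differed by -0.05 ± 0.24 (log2, SE; edgeR adjusted p = 0.908), with an interval of 2 SE from -0.54 to 0.43. Its levels were 158 (library 1), 100.3 (library 2), 68.2 (library 4) and 189.7 (library 5) CPM in WT CD. In Gαq CD Ucp2 was 135 (library 6), 66.0 (library 7), 101 (library 8), 83.1 (library 9) and 159 (library 10) CPM. It was 76.0 to 224 CPM in WT ERTU and 81.4 to 213 CPM in Gαq ERTU, so all groups overlapped. Its neighbour Ucp3 changed within the same hearts, but the difference between the 2 genes was not tested. Acot7, at 72.0 to 110 CPM over all 18 hearts, differed by 0.06 ± 0.08 (adjusted p = 0.604, interval -0.09 to 0.21). Acot13, at 177 to 291 CPM over all 18 hearts, differed by -0.21 ± 0.08 (adjusted p = 0.0896, interval -0.37 to -0.04), and 2 of 5 Gαq CD and 2 of 4 Gαq ERTU hearts lay below every WT heart of the same diet. Without WT CD library 5 Acot13 was called (adjusted p = 0.0403). In all, 4 of the 7 genes were called by genotype, 3 lower and 1 higher, beside 19.6% of all genes. Without WT CD library 1, WT CD library 2 or Gαq CD library 8 the number was 2.

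Within a diet none of the 7 genes was called in the main edgeR fit. Ucp3, Acot1, Acot2 and Acot9 nevertheless had an unadjusted p under 0.05 on CD, and Acot2 had on ERTU. On CD the log2 changes were -1.96 ± 0.65 (SE) in Ucp3 (adjusted p = 0.0692), -1.91 ± 0.68 in Acot1 (adjusted p = 0.0966), -1.36 ± 0.44 in Acot2 (adjusted p = 0.0683) and 0.28 ± 0.10 in Acot9 (adjusted p = 0.0994). Of all genes, 8.1% were called on CD and 21% had an unadjusted p under 0.05. Leaving out single hearts changed the calls. Without WT CD library 4, the heart with low Pdk4, Ucp3 (log2 change -2.33, adjusted p = 0.0207), Acot1 (-2.27, adjusted p = 0.0370) and Acot2 (-1.66, adjusted p = 0.0184) were called as lower, as were 3.76% of all genes. The same 3 were called without Gαq CD library 10 (adjusted p 0.0115 to 0.0186, 4.07% of all genes lower), and Ucp3 without Gαq CD library 6 (adjusted p = 0.0469, 4.65% of all genes lower). DESeq2 called 0 of the 7 on CD, and limma voom called Ucp3 and Acot2 as lower, with 5.51% of all genes. With no filter on low counts edgeR called Ucp3 (adjusted p = 0.0219), Acot1 (0.0399) and Acot2 (0.0239) as lower. In that fit 1197 of 30773 genes were called in either direction.

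On ERTU the log2 changes by genotype were -0.99 ± 0.65 in Ucp3 (edgeR adjusted p = 0.408), -1.14 ± 0.68 in Acot1 (adjusted p = 0.352) and -0.97 ± 0.45 in Acot2 (adjusted p = 0.218), where 8.17% of all genes were called and 21.7% had an unadjusted p under 0.05. DESeq2 and limma voom called 0 of the 7 there. Fitted on only these 9 libraries, Ucp3 (adjusted p = 0.0349) and Acot2 (adjusted p = 0.0263) were called as lower, as were 4.14% of all genes. These comparisons use the same hearts as the comparison over both diets. The 2 changes are not shown to differ between diets, since the interaction was 0.98 ± 0.90 in Ucp3, 0.77 ± 0.95 in Acot1 and 0.39 ± 0.63 in Acot2 (adjusted p = 1.00 in each). By the interaction 0.0% of all genes were called by edgeR, DESeq2 or limma voom, and 1.92% (313 genes, 0 of the 7) had an unadjusted p under 0.05 in edgeR. Mean Gnaq in Gαq hearts also differed between diets (7473 CPM on CD, 3216 CPM on ERTU), and its part in the genotype changes was not tested.

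**Figure D2:**
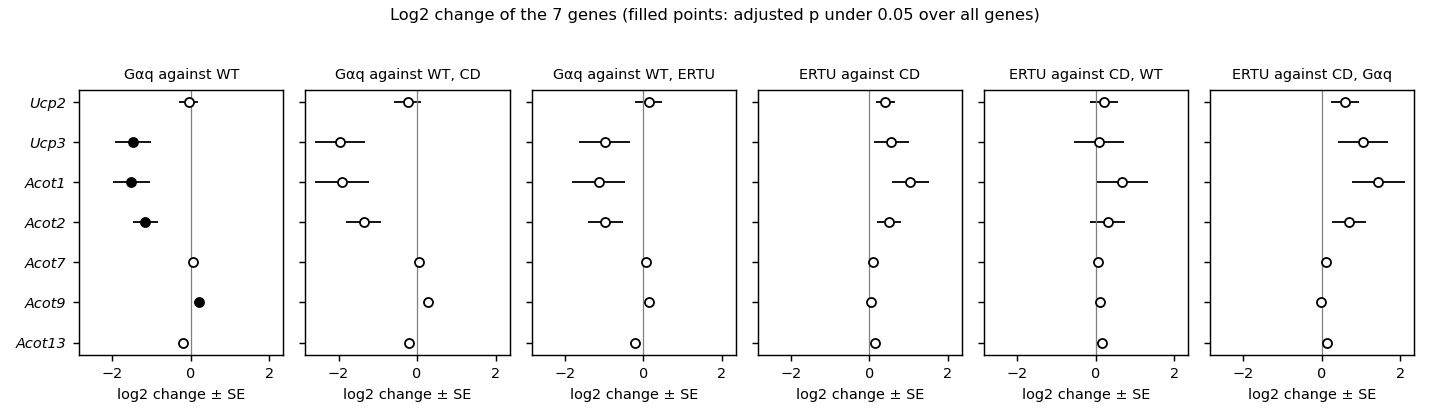
Log2 change ± SE of the 7 genes in 6 comparisons, from edgeR; filled points have an adjusted p under 0.05. Filled points occur only in the comparison of genotypes over both diets, in Ucp3, Acot1, Acot2 and Acot9.

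ERTU did not change any of the 7 genes past the threshold. With genotype in the model all 7 estimates were positive, with a median log2 change of 0.40 beside -0.0017 over all genes. The log2 changes were 1.04 ± 0.47 (SE) in Acot1, 0.56 ± 0.45 in Ucp3, 0.49 ± 0.31 in Acot2, 0.40 ± 0.24 in Ucp2, 0.15 ± 0.08 in Acot13, 0.09 ± 0.08 in Acot7 and 0.04 ± 0.07 in Acot9. In edgeR only Acot1 had an unadjusted p under 0.05 (0.0390, adjusted p = 0.640), and 0.0% of all genes were called (7.7%, or 1252 genes, at an unadjusted p under 0.05). DESeq2 called 2 of all genes and limma voom 0, none of them a member. In limma voom Acot1, Acot2 and Ucp3 had an unadjusted p under 0.05 (adjusted p 0.434 to 0.471), as had 1646 of 16270 genes. There the log2 change of Ucp3 was 1.07.

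In Gαq hearts alone the log2 change on ERTU was 1.44 ± 0.68 (SE) in Acot1 (unadjusted p = 0.0482, edgeR adjusted p = 0.654), 1.05 ± 0.64 in Ucp3 (adjusted p = 0.665) and 0.69 ± 0.44 in Acot2 (adjusted p = 0.670). Of all genes 0.00615% (1 gene) were called there and 7.62% had an unadjusted p under 0.05. In limma voom 4 of the 7 had an unadjusted p under 0.05, as had 2532 of 16270 genes. In DESeq2 0 of the 7 had, beside 1420 of 30773 genes. In edgeR with no filter on low counts 3 had, beside 1955 of 30773 genes. Each of these 3 alternatives called 0 of the 7. Mean Gnaq in Gαq hearts was 3216 CPM on ERTU and 7473 CPM on CD, and its part in the changes was not tested. In WT hearts the changes were 0.67 ± 0.67 in Acot1, 0.07 ± 0.63 in Ucp3 and 0.30 ± 0.44 in Acot2, and 0.0% of all genes were called (2.24%, or 365 genes, at an unadjusted p under 0.05, and 0 called by DESeq2 or limma voom). The 7 genes held 0 such unadjusted p in WT. The 3 Gαq CD hearts with the lowest values, libraries 7, 8 and 9, lay below every Gαq ERTU heart in these 3 genes, while libraries 6 and 10 lay inside or near the Gαq ERTU range.

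Pdk4 split the 18 hearts. It was 3976 (library 1), 3504 (library 2), 166 (library 4) and 3500.4 (library 5) CPM in WT CD. It was 1873 (library 6), 150.4 (library 7), 261 (library 8), 105 (library 9) and 1818 (library 10) CPM in Gαq CD. Thus 4 hearts, all on CD, were at 105 to 261 CPM and the other 14 at 1308 to 6869 CPM. Pdk4 itself was not called by genotype (log2 change -1.39 ± 0.54, SE, edgeR adjusted p = 0.0762). In the 4 hearts with low Pdk4, Ucp3 was 8.23 to 23.1 CPM and in the other 14 it was 61.2 to 257 CPM. For Acot1 the ranges were 2.80 to 6.19 and 12.3 to 114 CPM, and for Acot2 27.9 to 50.9 and 88.6 to 296 CPM, again without overlap. How many of all genes split without overlap in this way was not counted. In Ucp2 3 of the 14 lay below the highest of the 4 hearts, in Acot7 7, in Acot13 9 and in Acot9 all 14. Since the hearts fell into these clusters, no correlation over all 18 is given for Pdk4 and a slope within groups was fitted instead.

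**Figure D3:**
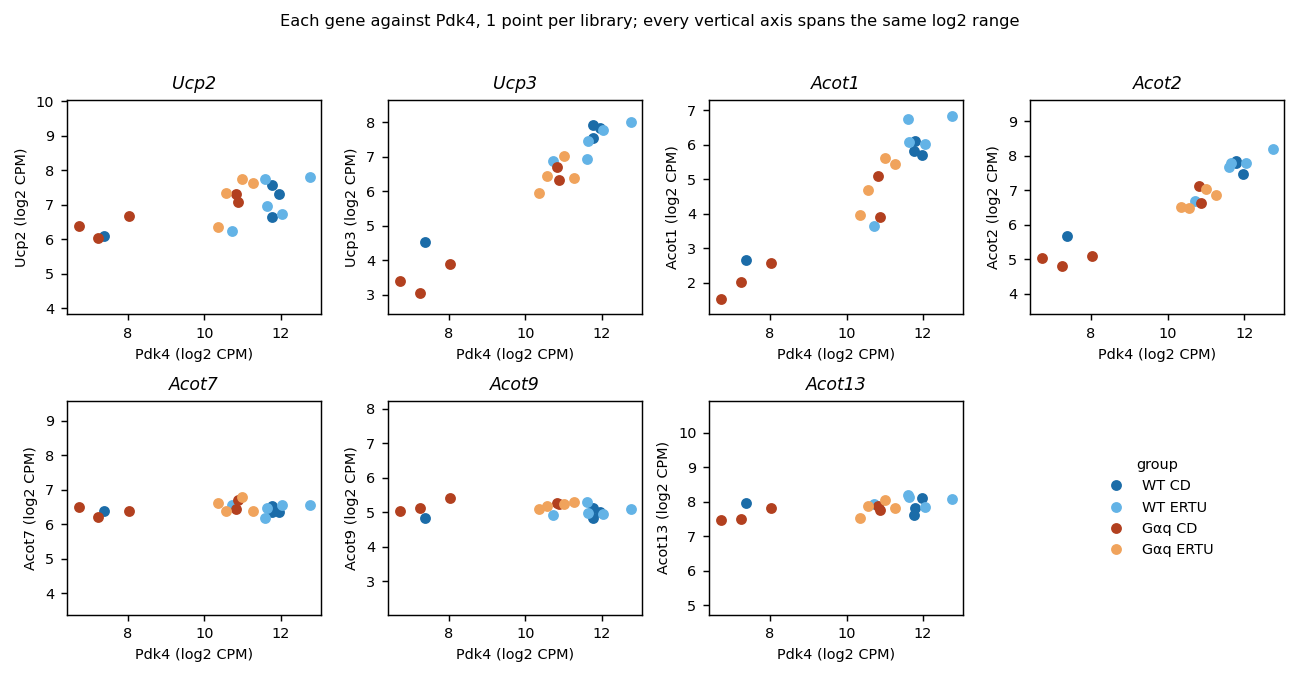
Log2 CPM of each of the 7 genes (vertical) against log2 CPM of Pdk4 (horizontal), with 1 point per library coloured by group; every vertical axis spans the same range. Ucp3, Acot1 and Acot2 climb with Pdk4 across the gap between 4 and 14 libraries, Ucp2 climbs less, and Acot7, Acot9 and Acot13 stay flat.

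With 1 mean per group in the model, 4 of the 7 genes had a positive slope on Pdk4 past the threshold, where 5.03% of all genes were called and 3.2% as positive. Per log2 unit of Pdk4 the slope was 0.77 ± 0.05 log2 units (SE) in Ucp3 (edgeR adjusted p = 8.54e-08), 0.78 ± 0.10 in Acot1 (adjusted p = 0.000117) and 0.50 ± 0.04 in Acot2 (adjusted p = 1.14e-06). These calls held in all 18 fits without 1 library. Ucp2 had a slope of 0.28 ± 0.07 (adjusted p = 0.0194), which was not called without WT CD library 4 (adjusted p = 0.0825), Gαq CD library 7 (0.0525) or Gαq CD library 10 (0.0608). Acot7 (0.03 ± 0.03), Acot9 (0.04 ± 0.02) and Acot13 (0.03 ± 0.03) were not called. In this fit a doubling of Pdk4 within a group went with rises of 1.71-fold in Ucp3, 1.72-fold in Acot1 and 1.41-fold in Acot2. The CD hearts spread most, with Pdk4 at -3.35 to 2.14 log2 units from the group mean, against -1.03 to 1.00 on ERTU. Pdk4 was measured in the same libraries, so the slopes also carry what a library shares among its genes.

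Without the 4 hearts with low Pdk4 the slopes kept their sign but none was called, with fewer samples in the fit. In the 14 hearts with higher Pdk4 the slopes were 0.61 ± 0.15 (SE) in Ucp3 (edgeR adjusted p = 0.0975), 1.33 ± 0.35 in Acot1 (adjusted p = 0.116), 0.65 ± 0.13 in Acot2 (adjusted p = 0.0513) and 0.74 ± 0.23 in Ucp2 (adjusted p = 0.170). Only 0.355% of all genes were called in these 14. Each of the 4 slopes had an unadjusted p under 0.05 there (0.000188 to 0.0064), as did 13.1% of all genes. Without WT CD library 4 alone, Ucp3, Acot1 and Acot2 were called, as were 1.55% of all genes with a positive slope. Without Gαq CD libraries 7 and 9, whose Pdk4 level was farthest from the median of all libraries (though not from their group mean), the slopes of Ucp3 (0.76), Acot1 (0.80) and Acot2 (0.52) were called (1.58% of all genes as positive), and that of Ucp2 (0.29, adjusted p = 0.0888) was not.

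**Figure D4:**
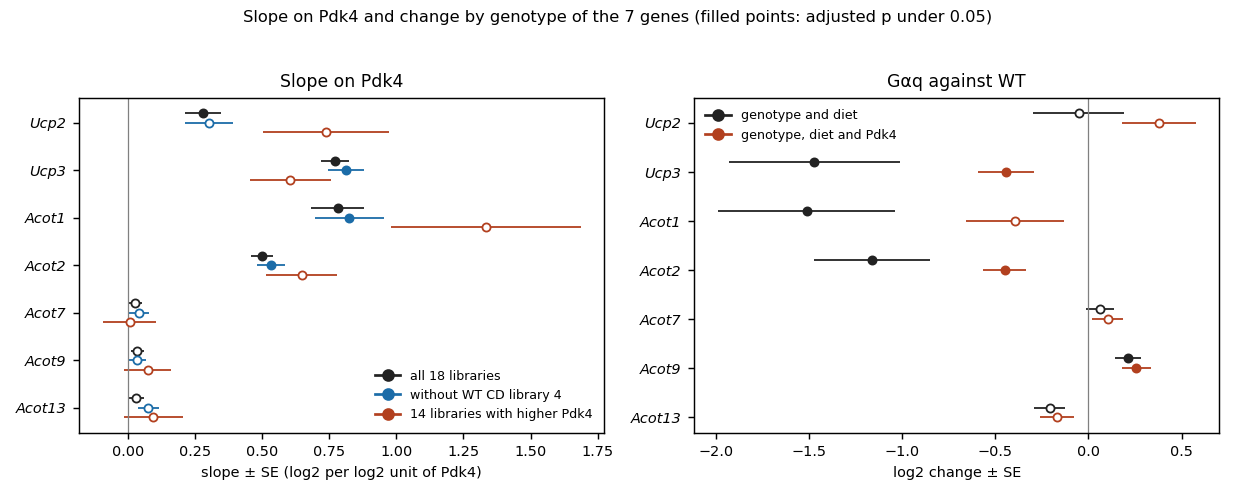
Left, slope of each gene on Pdk4 ± SE in log2 units per log2 unit of Pdk4, over all 18 libraries, without WT CD library 4 and over the 14 libraries with higher Pdk4; right, log2 change by genotype ± SE with and without Pdk4 in the model; filled points have an adjusted p under 0.05. The slopes of Ucp3, Acot1 and Acot2 stay above 0.4 in all 3 fits, and the genotype changes of these genes move toward 0 with Pdk4 in the model.

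With the Pdk4 level added to genotype and diet, the log2 change by genotype shrank from -1.47 to -0.44 ± 0.15 (SE) in Ucp3 (edgeR adjusted p = 0.0468), from -1.16 to -0.45 ± 0.12 in Acot2 (adjusted p = 0.00902) and from -1.51 to -0.39 ± 0.26 in Acot1 (adjusted p = 0.334). Ucp3 and Acot2 were thus still called as lower, and Acot1 was not. Ucp2 moved to 0.38 ± 0.20 (adjusted p = 0.207). Acot9 was at 0.26 ± 0.08 (adjusted p = 0.0235) and remained called as higher. In this fit 18.4% of all genes were called, 9.07% as higher and 9.29% as lower. For diet, the estimates of the same fit were 0.25 ± 0.26 in Acot1, -0.10 ± 0.15 in Ucp3, -0.06 ± 0.12 in Acot2 and -0.01 ± 0.20 in Ucp2, none of them called.

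The near copies Acot1 and Acot2 did not keep a fixed ratio. Acot1 made up 10.9 to 23.2% of the counts of both in WT CD, 10.7 to 34.3% in WT ERTU, 7.97 to 19.6% in Gαq CD and 14.5 to 27.2% in Gαq ERTU. The highest share, 34.3%, was in WT ERTU library 14, and the lowest, 7.97%, in Gαq CD library 9. The group means were 19.3% ± 5.80, 23.8% ± 8.66, 13.5% ± 4.21 and 22.8% ± 5.95 (SD, n = 4, 5, 5 and 4), with overlapping ranges, and no test was made. The shares also depend on how many pairs of each gene aligned uniquely.

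Of the other carriers of this family, 5 of 7 could be tested and none was called by genotype or on Pdk4. They include Slc25a4 and Slc25a5, the ADP/ATP exchangers, with the former at 5469 CPM on average and the latter at 306 CPM. Ucp1, the carrier of brown fat, had 0.596 CPM in its highest library and was too low to test. Of 12 other thioesterase genes 7 could be tested, with 1 called lower and 1 higher in Gαq, beside 9.92% and 9.72% of all genes. Acot11 was lower in Gαq (log2 change -0.53 ± 0.10, SE, edgeR adjusted p = 0.000462) and Them6 higher (0.43 ± 0.12, adjusted p = 0.0148). Acot4, a peroxisomal thioesterase that shares windows with Acot1, had a called slope on Pdk4 of 0.55 ± 0.08 (adjusted p = 0.000646) at only 2.21 CPM on average.

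Of 18 tested genes that make and bind acyl-CoA, the substrate of the thioesterases, 12 were not called by genotype. In Gαq 5 were lower and 1 was higher, beside 9.92% and 9.72% of all genes. The median log2 change of the 18 was -0.05 beside 0.0038 over all genes. Acsl1, the main long-chain synthetase of heart, was lower (-0.61 ± 0.13, SE, edgeR adjusted p = 0.00147), as were Acsf2 (-1.03 ± 0.12, adjusted p = 3.66e-06) and Acsf3 (-0.72 ± 0.08, adjusted p = 2.31e-06). Slc27a6, a fatty acid transporter, was higher (1.67 ± 0.30, adjusted p = 0.000358) at only 0.957 CPM on average. On Pdk4, 4 of the 18 had called slopes, all positive, beside 3.2% of all genes called as positive. The steepest were those of Acss3 (0.44 ± 0.07), Slc27a1 (0.32 ± 0.04) and Acss1 (0.19 ± 0.03).

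Most PPARA targets other than the members were, like Ucp3, Acot1 and Acot2, called as lower in Gαq. Of 30 genes listed, Pdk4 among them, 27 could be tested. In Gαq 20 were lower and 0 higher, beside 9.92% and 9.72% of all genes. The median log2 change of the 27 was -0.59, beside 0.0038 over all genes. Among those that fell were Ehhadh (-1.29 ± 0.17, SE, edgeR adjusted p = 1.29e-05), a peroxisomal enzyme of fatty acid oxidation, and Ech1 (-1.11 ± 0.10, adjusted p = 1.22e-07). On Pdk4, 18 of the other 26 had positive slopes past the threshold, beside 3.2% of all genes, and 0 had negative ones. Angptl4, an inhibitor of lipoprotein lipase, was steepest (1.06 ± 0.10), and Plin2, a lipid droplet protein, had a slope of 0.35 ± 0.04. Both were among the steepest of the list, and the median slope of the 26 was 0.13. The slopes of Ucp3, Acot1 and Acot2 lay above that median, between those of Angptl4 and Plin2. By diet all 27 estimates were positive, with a median log2 change of 0.25 beside -0.0017 over all genes. By diet 0 were called, beside 0.0% of all genes.

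Of 10 regulators of these genes, 4 were lower in Gαq, beside 9.92% of all genes, and without single libraries the number was 1 (without WT CD library 1) to 5. They include the coactivator Ppargc1a (-0.37 ± 0.11, SE, edgeR adjusted p = 0.0261) and the receptors Ppard (-0.30 ± 0.10, adjusted p = 0.0439) and Rxra (-0.25 ± 0.08, adjusted p = 0.0271). Pparg alone had a called slope on Pdk4 (0.16 ± 0.03, adjusted p = 0.00455), where 5.03% of all genes were called.

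The genes most alike to each member were named by Pearson's r of log2 CPM after subtraction of the group means, among 13097 genes and over all 18 libraries. As a description, r is given over the 14 hearts with higher Pdk4, and the genes compared share these libraries with their depth and scaling. For Ucp3 these genes were Pdk4 (r = 0.750), Acot2 (0.726) and the noncoding Gm17251 (0.785). For Acot1 they included Hsd17b11 (0.913), a lipid droplet dehydrogenase, and Gm17251 (0.916). For Acot2 they were Gm17251 (0.957), Mlycd (0.902), which breaks down malonyl-CoA, and Rab11b (0.911). Gm17251 overlaps the start of Rab11b on the other strand, so reads of these 2 may not be separate. Ucp2 kept other company, namely Gpihbp1 (0.951), which holds lipoprotein lipase on capillary endothelium, Il4ra (0.943) and Rbp7 (0.947).

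The flat members were alike to other genes again. The nearest to Acot7 were Anxa6 (0.917), the pseudogene Gm1840 (0.891) and Atp5b (0.893), a subunit of ATP synthase. The nearest to Acot9 were Thumpd3 (0.916), Paics (0.917) and Plrg1 (0.870). The nearest to Acot13 were Mcee (0.936), an enzyme of propionate breakdown, Churc1 (0.956) and D8Ertd738e (0.901). Among the members themselves, r over the 14 hearts was 0.925 between Acot1 and Acot2, 0.726 between Ucp3 and Acot2, 0.633 between Ucp3 and Acot1 and 0.425 between the neighbours Ucp2 and Ucp3.

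Fibroblast markers moved with genotype beside these genes, and their part in the results was not tested. Of 10 fibroblast markers 7 were higher in Gαq, with a summed level of 3398 to 6633 CPM in WT CD and 5103 to 7673 CPM in Gαq CD. Of 10 cardiomyocyte markers 3 were lower (Ryr2, Myh6 and Tnni3) and 1 was higher (Mybpc3). Of 10 endothelial markers 2 were lower, and of 10 macrophage and 6 tested lymphocyte markers 1 each was higher, beside 9.72% of all genes higher and 9.92% lower. On Pdk4, where 5.03% of all genes were called, Fabp4 (0.23 ± 0.05, SE) and Cidea (0.13 ± 0.04) of 7 tested fat markers had called slopes. Fabp4 averaged 1091 CPM and Cidea 34.6 CPM. The other 5, at 0.546 to 7.53 CPM on average, were not called, and 6 of the 7 slopes were positive. Of 10 macrophage markers only Cd163 was called (0.32 ± 0.06), while the median slope of the 10 was -0.03 and 3 were positive. Called slopes were found in 0 cardiomyocyte, fibroblast or endothelial markers. The fat markers Lep, Adrb3 and Ucp1 were too low to test. Of 7 tested atrial markers only Nppa was called, as higher in Gαq (5.03 ± 0.26). Of 6 tested skeletal muscle markers 3 were higher, Acta1 (1074 CPM on average), Pvalb (0.756 CPM) and Tnnt3 (0.857 CPM), the latter 2 at very low levels. Ckm (2065 CPM on average) was lower.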

How the data were processed

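The data are read counts of left ventricle poly(A) RNA, 1 library per mouse. Per the labels and methods of the study, the authors aligned paired reads to mm10 with STAR 2.6.0c and counted unique proper pairs per Ensembl gene with featureCounts (Subread 1.6.2), and deposited raw counts. The methods name same-strand counting, without saying whether this means the strand of the gene. The authors also deposited variance-stabilized values on a log2 scale from DESeq2, which served in 1 alternative and were recomputed from the counts to within 5.2e-11. Column numbers run across the series and were matched to groups only.

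Here, genes were filtered with filterByExpr over the 4 groups, which left 16270 genes and removed 0.0906% of counts. Libraries were scaled by TMM and tested with edgeR 4.0.16 (quasi-likelihood, R 4.3.3), with Benjamini-Hochberg adjustment over all genes and a threshold of 0.05. Genotype and diet were additive, contrasts within a diet or genotype used 4 group means, and the slope added log2 CPM of Pdk4 (prior count 2) to these means. A correlation with Pdk4 over all 18 libraries had been planned and is not given, because Pdk4 falls into clusters. The fits were tested on simulated data. Alternatives were other scaling, filters, DESeq2 1.42.0, limma 3.58.1 voom, and leaving out each library.

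Total counts ran from 15383566 to 20908363 per library, and 0 pairs of libraries were identical. The members, and the gene and marker lists (other carriers, other thioesterases, acyl-CoA synthetases and binding proteins, PPARA targets, regulators, and markers of cardiomyocytes, fibroblasts, macrophages, lymphocytes, endothelium, fat, atrium and skeletal muscle), were chosen with earlier results of these data known. Named genes are the members, Pdk4, up to 3 called genes per list with the largest rise, fall or slope, and the 3 genes most alike to each member with a mean log2 CPM of at least 1. Exceptions named after their values were seen are Slc25a4, Slc25a5, Ucp1, Lep, Adrb3 and Gnaq. Of the genes named by this rule, 1 is not reported here.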

Additional observations from a re-analysis of the deposited data

Results flagged for a closer look

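Dixon's ratio is the gap of the lowest or highest library to its nearest neighbour over the range of the group. It was computed on CPM in 32 groups of values (7 genes and Pdk4 in 4 groups). At 1 in 20 by chance, 1.6 would pass, and 2 passed. The 32 groups share libraries and are not independent, and ratios on log2 CPM are not given. Pdk4 in WT CD library 4 was 165.5 CPM where the other WT CD hearts were at 3500.4 to 3976 CPM (ratio 0.875). Acot7 in WT ERTU library 14 was 72.0 CPM where the other WT ERTU hearts were at 89.1 to 94.5 CPM (ratio 0.762). The causes were not tested.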

How the results depend on the processing

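No called value of a member turned its direction under any alternative. Values that were not called did in places: by genotype Ucp2 was 0.15 with limma voom and 0.38 with Pdk4 in the model (-0.05 as reported), and by diet Ucp3 was -0.10, Acot2 -0.06 and Ucp2 -0.01 with Pdk4 in the model. Of 252 values of 14 results for single genes without 1 library each, 227 kept their side of the threshold, 17 lost it and 8 gained it, and of 92 values under other settings 77 kept it, 8 lost it and 7 gained it. The number of the 7 genes called by genotype was 2 to 4 without single libraries, with 2 called without WT CD library 1, WT CD library 2 or Gαq CD library 8. On CD it was 0 to 3 (0 with all libraries, 1 without Gαq CD library 6). It was 3 with no filter on low counts (1197 of 30773 genes called) and 2 with limma voom (1734 of 16270 genes called). On ERTU it was 2 when only the 2 groups compared were fitted. Against Pdk4 it was 0 in the 14 libraries with higher Pdk4, an alternative added after the data were seen, as was Pdk4 in the model of genotype. By genotype, 1 other carrier was called with no filter and 1 with DESeq2 (0 in the main edgeR fit). Of the other thioesterases 4 were called with no filter and 4 with DESeq2 (2 in the main edgeR fit). Over all genes 2947 of 30773 were called with no filter and 3534 of 30773 with DESeq2. These 2 settings also start from list genes that the main filter left out, so the counts are not like for like. Of the regulators 2 were called with no filter, and 1 to 5 without single libraries, with 1 without WT CD library 1 and 2 without WT ERTU library 11, WT ERTU library 12 or Gαq ERTU library 20. The causes were not tested. No paired analysis was possible because header numbers run on through all libraries and none occurs in more than 1 group. Depth limits Acot1 most, with 47 counts in its lowest library.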
